A study of Homo sapiens with 6 samples.

Results

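Circular RNA (circRNA) forms by back-splicing, in which the end of an exon is joined to the start of the same or an earlier exon. A set of 636 abundant circRNAs was described here, taken as every circRNA with at least 15 expected counts in each of 6 libraries from HaCaT cells. They were 2.43% of the 26209 circRNAs listed in at least 1 library and 18.3% of the 3472 listed in all 6. HaCaT is an established line of human keratinocytes, wild type per the labels. Cells were either sham irradiated (3 libraries) or given UVA (3 libraries) at a dose of 5 J per square centimetre, and RNA was taken 6 h later. Labels do not say whether the 3 libraries of a group were separate cultures, so the spread between them may be technical. RNase R, which degrades linear but hardly circular RNA, is named in the labels at the step that removed ribosomal RNA. The counts that chose the set also fix its levels, so levels and shares are descriptions with no test.

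A circRNA has no free end and is therefore poorly attacked by exonucleases, and many are long-lived in cells. They arise from the exons of genes that also give linear transcripts, and some bind microRNAs or proteins. They are counted through reads that cross the back-splice junction, so their levels rest on far fewer reads than those of linear transcripts. For this reason an abundant circRNA is one of the few for which a treatment effect can be bounded closely. All identifiers had the same form, a prefix and a number, with no host gene. Host genes, keratinocyte markers and junction sequences were therefore not analysed here, and circRNAs are named below by their rank in mean TPM over the 6 libraries (rank 1 the highest). For all but 37 to 112 circRNAs per library, TPM here is reads scaled to a library's own total, with no scaling by length. A shift shared by every circRNA is invisible on this scale, and in bulk RNA fewer cells holding a circRNA and less of it per cell cannot be told apart.

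Library totals implied by the TPM values ran from 64555 to 361024 reads. Sham replicate 2 (91053 reads) and UVA replicate 1 (64555 reads) were the 2 shallowest, 1 in each group, and were set apart from the other 4 in earlier results of these data. In UVA replicate 1 the minimum of 15 reads stood for 232 TPM, and in UVA replicate 3, the deepest, for 41.5 TPM. The minimum was therefore a different level in each library. It was set by UVA replicate 1 for most of the set: 478 of the 636 had their lowest count there and 130 had it in sham replicate 2.

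The levels of the set spanned a 48.6-fold range, from a mean of 136 TPM to 6583 TPM. The median was 363 TPM, with 250 TPM and 575 TPM at the quartiles, and the 95th percentile was 8.83 times the 5th. Abundance was divided at 400, 800 and 1600 TPM. There were 349 circRNAs under 400 TPM, 188 from 400 to under 800 TPM, 70 from 800 to under 1600 TPM and 29 at 1600 TPM and over. Most of the set thus lay in the lowest band. The median count per circRNA was 27 reads in UVA replicate 1 and 38 in sham replicate 2. It was 73 in sham replicate 1, 54 in sham replicate 3, 57.5 in UVA replicate 2 and 116 in UVA replicate 3.

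**Figure D1:**
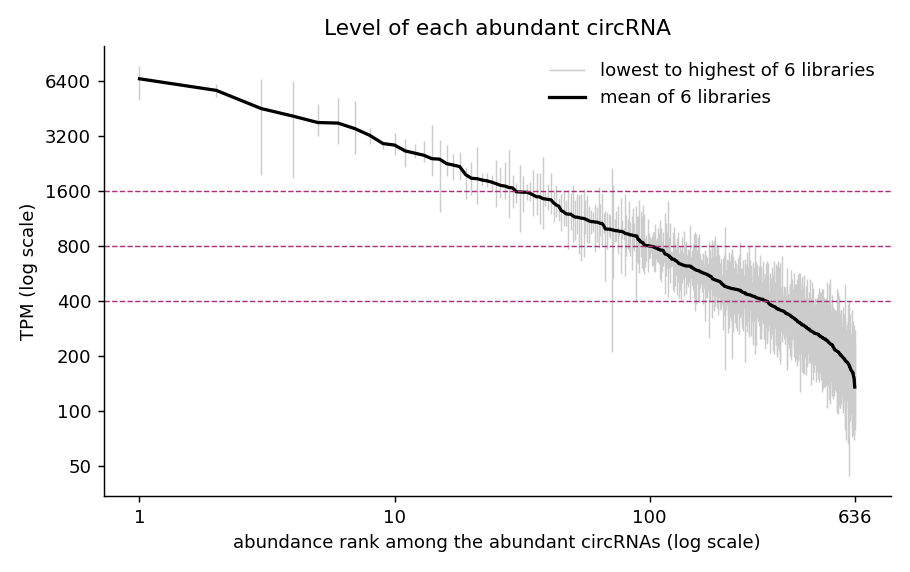
Mean TPM of the 6 libraries (black line, log scale) against abundance rank (log scale) for the 636 circRNAs, with grey lines from the lowest to the highest library and dashed lines at 400, 800 and 1600 TPM. Levels fall from 6583 TPM at rank 1 to 136 TPM at rank 636, and the grey lines of ranks 3, 4 and 71 are long for their level.

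The 6 most abundant circRNAs differed in how evenly the libraries held them. Rank 1 (novel_circRNA_18834) was at 7289, 5030 and 6577 TPM in sham replicates 1 to 3 and at 5995, 7694 and 6911 TPM in UVA replicates 1 to 3. Its lowest values were those of the 2 shallowest libraries, and the groups overlapped. Rank 2 was at 5249, 5316 and 6157 TPM in sham and at 5530, 6012 and 5867 TPM in UVA. On the TPM scale it was the most even of the 6, with a 1.17-fold range over the libraries, against 1.53-fold for rank 1. Rank 3 was at 6539, 1955 and 4812 TPM in sham and at 3330, 5546 and 4964 TPM in UVA. Rank 4 (novel_circRNA_50450) followed the same order at the low end, at 6399, 1878 and 4171 TPM in sham and at 2943, 5379 and 3900 TPM in UVA. Both were lowest in sham replicate 2 and next lowest in UVA replicate 1, with ranges of 3.34-fold and 3.41-fold. Ranks 5 and 6 went the other way. Rank 5 was at 3383, 4766 and 3272 TPM in sham and at 4647, 3490 and 3205 TPM in UVA. Rank 6 was at 3108, 5140 and 3518 TPM in sham and at 4864, 3093 and 2878 TPM in UVA. In both, sham replicate 2 and UVA replicate 1 were the 2 highest libraries. The order of evenness turned with the scaling: on counts scaled by TMM, a method that sets library sizes from the bulk of the circRNAs, the coefficient of variation within groups was 20.8% for rank 2, 7.72% for rank 5 and 10.6% for rank 6. In rank order, each of the 6 differed from the next by less than the SD over the libraries of the more variable of the pair.

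Reads were spread over the set. It held 38.9% of all listed reads, summed over the libraries. The share was 37.5%, 44.6% and 40.0% in sham replicates 1 to 3 and 46.7%, 38.3% and 36.8% in UVA replicates 1 to 3. It was highest in the 2 shallowest libraries, and the groups overlapped: the sham mean was 40.7% ± 3.61 and the UVA mean 40.6% ± 5.34 (SD, n = 3 each). Of the library totals, which include reads not in the tables, the set held 31.4% to 39.7%. Beside this, the other 2836 circRNAs listed in all 6 libraries held 27.8% to 33.2% of the listed reads, and those missing from at least 1 library held 20.1% (UVA replicate 1) to 35.3% (UVA replicate 3). The part of depth in these shares was not tested.

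The 4 bands held shares of similar size despite their different numbers of circRNAs. The 29 circRNAs at 1600 TPM and over took 9.25% ± 0.140 of the listed reads in sham and 9.28% ± 0.375 in UVA. The 70 of the next band took 9.11% ± 0.737 and 8.94% ± 1.07, and the 188 from 400 to under 800 TPM took 11.7% ± 1.12 and 11.5% ± 1.40. The 349 under 400 TPM took 10.7% ± 1.89 in sham libraries and 10.8% ± 2.56 in UVA libraries (SD, n = 3 each). The spread between libraries was thus smallest for the top band and widest for the lowest band. In the lowest band the share reached 12.7% in sham replicate 2 and 13.8% in UVA replicate 1, against 9.04% to 10.2% in the other 4 libraries. The 10 most abundant took 9.85% to 13.6% of the set's own reads, and the 100 most abundant 42.5% to 47.7%.

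The limit of 15 reads cut through a dense part of the data. There were 55 circRNAs whose lowest library held 15 reads and 52 whose lowest held 14. The 4 most abundant just inside had mean levels of 317 to 374 TPM, and each had its 15 reads in UVA replicate 1. The 4 most abundant just outside had mean levels of 405 to 457 TPM, and their 14 reads were in UVA replicate 1 for 3 and in sham replicate 2 for 1. The level of the least abundant of these 4 rests on deposited TPM values above what its reads give by the constant of each library. Some circRNAs left out were therefore more abundant than some kept. Of the 636 circRNAs with the highest mean TPM, 528 (83.0%) were in the set. The other 108 had their lowest count in UVA replicate 1 (70), in sham replicate 2 (36) or in another library (2), and 14 of them were unlisted in at least 1 library.

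The set leaned towards circRNAs that were high in the shallow libraries on the TPM scale, which the rule itself favours. The highest of the 6 values was in UVA replicate 1 for 263 circRNAs and in sham replicate 2 for 217, against 14 for UVA replicate 3. Both shallow libraries lay above the other 4 for 261 circRNAs (41.0%) and below them for 33 (5.19%). When the same number was chosen by mean TPM, with no minimum per library, they lay above for 191 and below for 70. The direction turned with the scaling: on TMM-scaled counts they lay above for 87 and below for 132. TMM factors were 1.27 for UVA replicate 1, 1.13 for sham replicate 2 and 0.860 to 0.965 for the rest. Under neither scale did the libraries part by treatment. On the TPM scale the median log2 deviation from the mean of the 6 libraries was 0.28 in UVA replicate 1 and 0.23 in sham replicate 2, and it was -0.18 to 0.00 in the other 4.

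**Figure D2:**
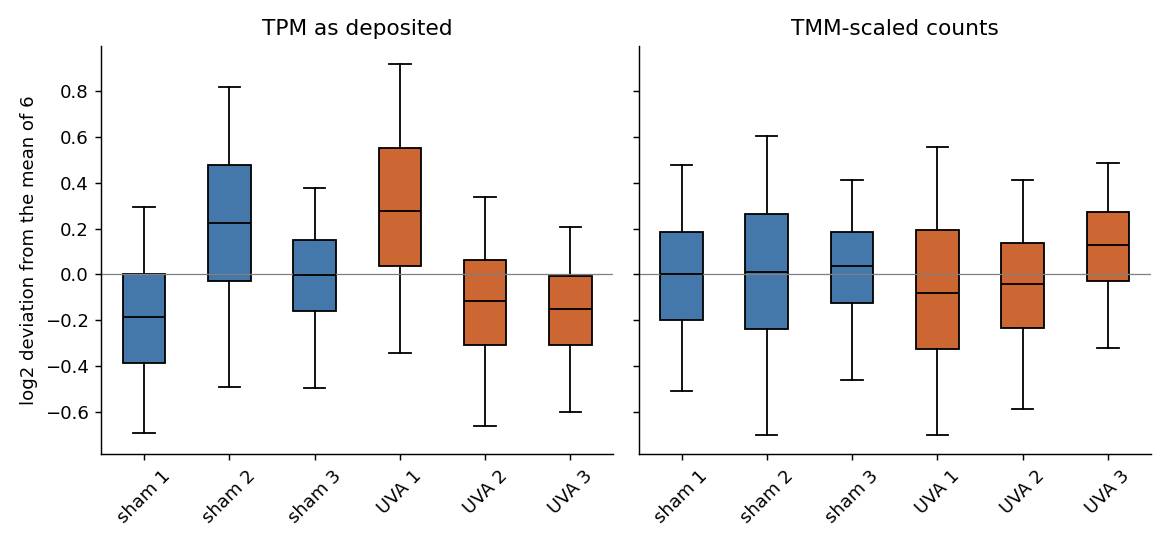
Log2 deviation of each of the 636 circRNAs from its own mean over the 6 libraries, by library (sham blue, UVA orange), on deposited TPM (left) and on TMM-scaled counts (right). Boxes span the quartiles with the median as a line, and whiskers run from the 5th to the 95th percentile; sham 2 and UVA 1 stand high on the left, with medians of 0.23 and 0.28, and not on the right, with 0.01 and -0.08.

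Most of the variation of TPM within a group was more than counting error. For each circRNA the coefficient of variation (CV, the SD over the mean) was taken over the 3 libraries of a group and averaged over the groups as squares. The median CV of TPM was 25.3%, where counting error alone gives 14.6%. By squares, counting error made up 24.4% of the variation of the set. Its share was 27.5% under 400 TPM, 22.5% from 400 to under 800 TPM, 10.4% from 800 to under 1600 TPM and 7.02% at 1600 TPM and over. The median CV in these 4 bands was 29.7%, 21.5%, 18.7% and 15.9%, where counting error alone gives 17.1%, 12.4%, 8.63% and 5.81%. For 91 circRNAs (14.3%) the CV was below that of counting error. The counts that chose the set also enter these CVs: a circRNA of low mean had to reach 232 TPM in UVA replicate 1. Shifts of whole libraries on the TPM scale enter too, with median log2 deviations of 0.28 (UVA replicate 1) and 0.23 (sham replicate 2). The part of each in the spread was not tested.

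The shallow libraries moved with this spread. Without sham replicate 2 and UVA replicate 1, the root mean square CV fell from 30.1% to 19.4% and counting error made up 44.5% of the squared variation. At 1600 TPM and over it fell from 21.6% to 9.82%, and under 400 TPM from 33.3% to 21.8%. On TMM-scaled counts, with all 6 libraries, the root mean square CV was 24.7%, with 25.2%, 24.1%, 24.5% and 24.0% from the lowest to the highest band. Counting error alone gives a root mean square CV of 14.9% for the set. The median CV on TMM-scaled counts was 23.7%, 20.1%, 19.0% and 17.2% in the same bands. In the 4 deeper libraries on the same scale the root mean square CV was 21.7% in the lowest and 11.4% in the highest band. Libraries agreed closely when both were among the deeper 4. Across the 636 circRNAs, which are not independent replicates, log2 TPM of 2 deeper libraries correlated at a Pearson r of 0.919 to 0.954 (6 pairs). With 1 shallow library r was 0.833 to 0.878 (8 pairs), and between the 2 shallow ones it was 0.864. The mean r was 0.879 within treatment groups (6 pairs) and 0.888 between them (9 pairs).

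**Figure D3:**
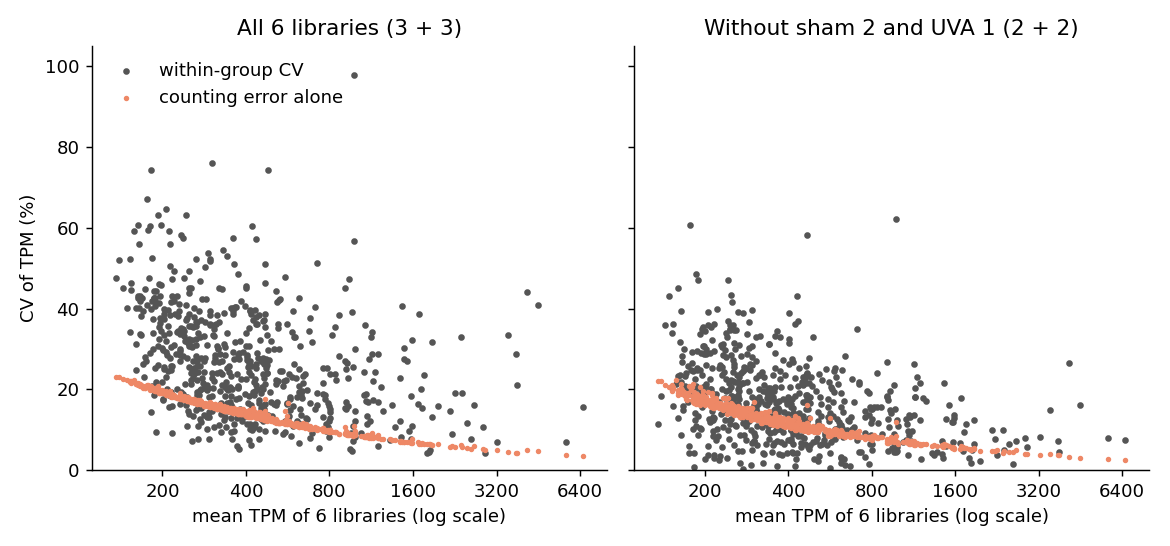
Within-group CV of TPM in percent (grey points) against mean TPM (log scale) for each of the 636 circRNAs, with the CV that counting error alone gives (orange), for all 6 libraries (left) and without sham 2 and UVA 1 (right). On the left the root mean square CV is 30.1% and on the right 19.4%.

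On the TPM scale some circRNAs were held almost evenly by every library. The lowest CV was that of rank 24, at 1691, 1603 and 1778 TPM in sham and 1843, 1883 and 1950 TPM in UVA (CV 4.18%, counting error 6.58%). Rank 9 was at 3008, 2965 and 2839 TPM in sham and 2943, 3000 and 2715 TPM in UVA (CV 4.27%). Rank 23 was at 1931, 1779 and 1998 TPM in sham and 1688, 1774 and 1751 TPM in UVA (CV 4.54%). In ranks 24 and 23 the groups did not overlap, with UVA higher in the former and lower in the latter. On TMM-scaled counts these 3 were less even, with CVs of 20.8% (rank 24), 16.7% (rank 9) and 20.8% (rank 23). A CV under 15% was found for 121 circRNAs, or 141 on TMM-scaled counts.

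At the other end, 36 circRNAs had a CV over 50%, and in 34 of them both shallow libraries lay above the other 4. The rule itself favours this pattern, because a circRNA of low mean had to reach 232 TPM in UVA replicate 1. Among the 108 members outside the 636 highest by mean TPM, both lay above for 71 and below for 0, with a median CV of 37.9%. On TMM-scaled counts 9 of the 636 circRNAs had a CV over 50%, of which 5 were over it on both scales. The highest CV was 97.8%, for rank 71 (novel_circRNA_247). This circRNA was at 1177, 2142 and 297 TPM in sham and at 1766, 299 and 211 TPM in UVA, from 46 to 270 reads per library. Sham replicates 1 and 2 and UVA replicate 1 held high levels and the other 3 libraries low ones, a 10.2-fold range. Rank 389 was at 235, 538 and 207 TPM in sham and 573, 127 and 136 TPM in UVA, and rank 601 at 126, 275 and 123 TPM in sham and 387, 109 and 66.5 TPM in UVA. Both were highest in UVA replicate 1 and next highest in sham replicate 2, so their spread fell within each group and not between the groups.

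No circRNA of the set changed past the threshold between UVA and sham. Over all 12615 circRNAs tested, 4 (0.0317%) were called, and 0 of the 636 were (edgeR, adjusted p = 1.00 for each by Benjamini-Hochberg). DESeq2 and limma also called 0. At an unadjusted p under 0.05 there were 7 of the 636 in edgeR (1.10%, against 1.94% of all tested), 4 in DESeq2 and 8 in limma. Without UVA replicate 1 the count was 1, the circRNA of rank 71. Shares over all tested were not taken for DESeq2, limma or this fit, so these counts stand without a background. Without both shallow libraries 0 of the 636 were called, against 0.0396% of all tested, and 15 (2.36%) had an unadjusted p under 0.05 in edgeR, against 2.42%. The fitted log2 fold changes were centred on 0, with a median of 0.00099, 319 above 0 and 317 below. Their median absolute value was 0.16, and the 5th and 95th percentiles were -0.41 and 0.37. Over all tested, the median was 0.02 and the median absolute value 0.56. For 466 circRNAs (73.3%) the fitted change was under 1.2-fold, for 11 it was over 1.5-fold and for 0 over 2-fold. By quartile of mean TPM, from the lowest to the highest, the median log2 fold change was 0.061, -0.014, -0.0015 and -0.022. In the lowest quartile 93 were above 0 and 66 below, and in the highest 71 and 88. A circRNA that fell below 15 reads in any library could not enter the set, so losses to under 15 reads were removed by the rule. UVA replicate 1 held the lowest count of 478 members, so the rule also favoured circRNAs high in that library. Its part in these medians was not tested.

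The groups did not overlap for few circRNAs. All 3 UVA libraries lay above all 3 sham libraries in TPM for 20 of the 636 and below them for 23, together 6.76%. The same held for 8.21% of all tested (3.65% higher, 4.57% lower), so the share in the set was near the background. The median absolute log2 fold change of these 43 was 0.33. On TMM-scaled counts there were 17 and 21, together 5.97%, against 7.4% of all tested (3.63% higher, 3.77% lower). Without the 2 shallow libraries, which leaves 2 against 2, there were 86 and 125, together 33.2%, against 32.9% of all tested (15.7% higher, 17.3% lower).

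The circRNAs with the smallest p on each side depended on single libraries. On the higher side the smallest p was that of novel_circRNA_50414, rank 581, at 78.5, 176 and 129 TPM in sham and 496, 132 and 141 TPM in UVA. UVA replicate 1 alone lay above sham, and the groups overlapped. Its log2 fold change was 0.86 (95% interval 0.03 to 1.68, unadjusted p = 0.0429, adjusted p = 1.00, edgeR). Without UVA replicate 1 the log2 fold change was 0.39, and without both shallow libraries it was 0.53. On the lower side the smallest p was that of novel_circRNA_247, the circRNA with the widest spread, at -0.90 (-1.45 to -0.36, unadjusted p = 0.00120, adjusted p = 1.00, edgeR). Without UVA replicate 1, which held 1766 TPM, its log2 fold change was -1.98 (adjusted p = 0.00176, edgeR), and without sham replicate 2 it was -0.42. Without both it was -1.55 (adjusted p = 0.999, edgeR). Its groups still overlapped without UVA replicate 1, with sham replicate 3 at 297 TPM and UVA replicate 2 at 299 TPM. With all 6 libraries its interval included 0 in DESeq2 (-2.84 to 1.26) and in edgeR with robust dispersion (-3.88 to 2.08). The same held in edgeR among circRNAs listed in all 6 (-1.83 to 0.02). It excluded 0 in limma and in the other edgeR fits of all 6 libraries. Across 17 alternative fits its adjusted p ran from 0.00176 to 1.00. Of the 7 with an unadjusted p under 0.05, only 2 had groups that did not overlap. The more abundant of these, rank 128, was at 881, 824 and 711 TPM in sham and 434, 513 and 584 TPM in UVA (log2 fold change -0.60, -1.16 to -0.04, adjusted p = 1.00, edgeR). It was singled out after its values were seen.

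**Figure D4:**
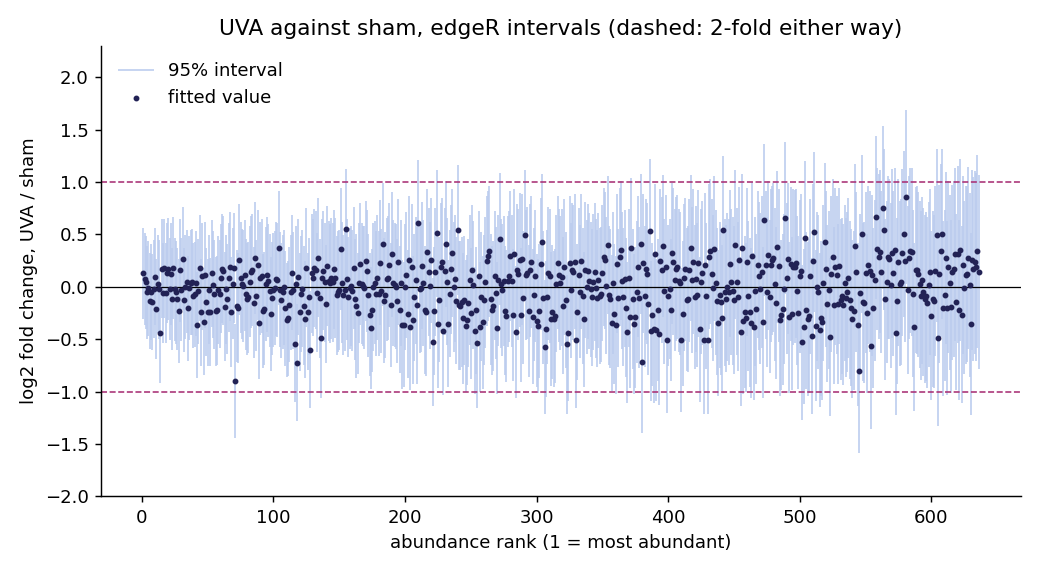
Fitted log2 fold change of UVA over sham (points) with 95% intervals (lines) for the 636 circRNAs in order of abundance, from the edgeR fit over all 12615 circRNAs, with dashed lines at a 2-fold change either way. Of the intervals, 505 lie inside the dashed lines, and those that cross them are mostly on the right, among the less abundant.

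How closely the effect of UVA was bounded depended on the estimate of spread. With the spread shared along the abundance trend, the 95% interval excluded changes of 2-fold or more in both directions for 505 of the 636 (79.4%); it lay inside 1.5-fold for 43 (6.76%), inside 3-fold for 634 and inside 4-fold for all 636. Without sham replicate 3 the count inside 2-fold was 330, and from each circRNA's own spread it was 302 on log2 TPM and 371 on log2 TMM-scaled counts. These intervals are per circRNA, not joint. In the same fit 286 of the 2836 other circRNAs listed in all 6 libraries (10.1%) and 818 of all 12615 tested (6.48%) were inside 2-fold. The median distance from the fitted value to either end of the interval, the margin, was 0.64 on the log2 scale, a factor of 1.56. It was 1.23, a factor of 2.35, for those 2836. Of the 131 whose interval reached a 2-fold change, 66 reached it upwards and 65 downwards, and 0 reached it both ways.

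With the spread shared along the abundance trend, the bound tightened with abundance, but slowly. Under 400 TPM 236 of 349 (67.6%) were inside 2-fold and 0 inside 1.5-fold, with a median margin of 0.71, a factor of 1.64. From 400 to under 800 TPM 171 of 188 (91.0%) were inside 2-fold and 8 inside 1.5-fold, with a factor of 1.51. From 800 to under 1600 TPM these were 69 of 70 and 20, with a factor of 1.44. At 1600 TPM and over all 29 were inside 2-fold and 15 (51.7%) inside 1.5-fold, with a margin of 0.48, a factor of 1.39. Counting error of the summed reads alone would give factors of 1.28, 1.19, 1.13 and 1.08 in the 4 bands. The fitted margin was 2.00 times that of counting error in the lowest band and 4.12 times in the highest.

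For single circRNAs the bounds with shared spread were these. Rank 1 had the smallest margin, with a log2 fold change of 0.13 (-0.30 to 0.56), and its interval excluded changes over 1.47-fold. Rank 2 was at 0.08 (-0.36 to 0.51) and rank 3 at 0.04 (-0.40 to 0.49). Rank 4 was at -0.05 (-0.50 to 0.39), rank 5 at -0.02 (-0.47 to 0.44) and rank 6 at -0.14 (-0.59 to 0.32). Each of the 6 intervals included 0, and that of rank 5 excluded changes over 1.39-fold. Of the even circRNAs, rank 24 was at 0.18 (-0.31 to 0.66) and rank 9 at -0.02 (-0.49 to 0.44). The widest margin was that of rank 636, at 87.2, 187 and 103 TPM in sham and 232, 109 and 94.2 TPM in UVA, with a log2 fold change of 0.14 (-0.78 to 1.07).

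These intervals borrow their spread. In the fit over all tested circRNAs edgeR estimated infinite prior degrees of freedom, which assigns each circRNA the spread of the abundance trend in place of its own. The margin of the uneven rank 71 was 0.55, close to that of other circRNAs of its level. With each circRNA's own spread and no borrowing (4 residual degrees of freedom), fitted on log2 TPM and so on another scale as well, 302 of 636 intervals (47.5%) lay inside 2-fold and 90 (14.2%) inside 1.5-fold. There were 291 circRNAs inside 2-fold by both. The median margin was then a factor of 1.78, and from the 5th to the 95th percentile it ran from 1.23 to 3.05. On log2 TMM-scaled counts, the scale of the shared fit, own spread gave 371 (58.3%) inside 2-fold and 97 inside 1.5-fold, with a median factor of 1.64. Unadjusted, 13 of the 636 own-spread intervals on log2 TPM excluded 0, against 7 in the shared fit. Own spread was fitted for the set alone, so the count of 13 stands without a share over all tested. By band on log2 TPM, 119 of 349, 114 of 188, 47 of 70 and 22 of 29 were inside 2-fold. On log2 TMM-scaled counts these were 177, 119, 54 and 21. On that scale the 95th percentile of the own-spread margin rose with abundance, with factors of 2.48, 2.71, 3.18 and 3.88 in the 4 bands. Fitted among the 3472 circRNAs listed in all 6 libraries, where edgeR estimated 28.9 prior degrees of freedom and so kept part of each circRNA's own spread, 535 of the 636 were inside 2-fold and 97 inside 1.5-fold. For rank 24 the margin was 0.49 in the shared fit and 0.14 from its own TPM values, and for rank 2 it was 0.44 and 0.23. For rank 71 it was 3.53 from its own values, and for ranks 3 and 4 it was 1.58 and 1.60, against 0.44 and 0.45 in the shared fit. In ranks 1, 5 and 6 the margin from own values was 0.53, 0.66 and 0.89, against 0.43, 0.45 and 0.46 in the shared fit. All these own margins are on log2 TPM, so each comparison mixes the scale with the borrowing. On TMM-scaled counts the CV was 20.8% for ranks 24 and 2, 7.72% for rank 5 and 10.6% for rank 6. It was 30.1%, 51.9%, 54.1% and 83.7% for ranks 1, 3, 4 and 71.

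**Figure D5:**
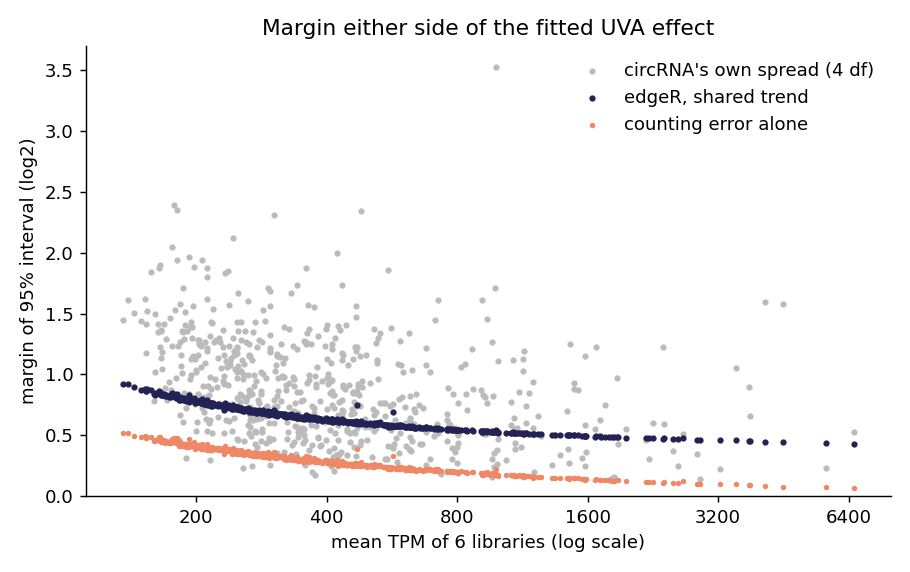
Margin of the 95% interval of the log2 fold change against mean TPM (log scale) for the 636 circRNAs, from the edgeR fit with spread shared along the abundance trend (dark), from each circRNA's own spread on log2 TPM (grey) and from counting error alone (orange). The dark points have a median of 0.64 and follow abundance closely, while the grey points have a median of 0.83 and scatter at every level.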

How the data were processed

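CircRNA was measured in 6 HaCaT libraries, 3 sham and 3 UVA. Per the series' design text, reads were aligned to hg38 and back-splice junction reads were counted; which aligner, caller and annotation were used is not given in the sources used here. The expected counts deposited by the authors are estimated reads per circRNA, not scaled, whole apart from 1 to 4 circRNAs per library. For all but 37 to 112 circRNAs per library, TPM deposited by the authors equals the expected count times 1 constant per library (relative tolerance 1e-06). Those values hold no scaling by length. How TPM was scaled for the others is not recorded in the labels. The smallest listed value was 2 reads, and a circRNA absent from a table was set to 0.

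Members were circRNAs with at least 15 expected counts in all 6 libraries. The members, bands and tests were chosen with earlier results of these data known. Rounded counts were fitted with edgeR 4.0.16 (R 4.3.3; quasi-likelihood test, TMM, no covariate, two-sided, Benjamini-Hochberg, threshold 0.05) over the 12615 circRNAs listed in at least 3 libraries. The standard error behind each 95% interval was the log2 fold change over the root of the F statistic. Counting error was Poisson and covers sampling of reads only. Identifiers are printed for the smallest p and the most abundant member on each side of 0. Other members described are the 6 most abundant, the tightest and widest interval, the 3 lowest and 3 highest CVs, and those next to the limit. Alternatives were DESeq2 1.42.0, limma 3.58.1 on log2(TPM + 31.0), other scalings, filters, covariates, members and left-out libraries. Robust dispersion, each circRNA's own spread, and overlap on TMM-scaled counts and without the 2 shallowest libraries, were added after the data were seen.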

Additional observations from a re-analysis of the deposited data

How the results depend on the processing

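The count of members called was 0 in 16 of 17 alternative fits and with 3 other choices of members. Of the alternative fits, the share called over all tested was taken only for that without both shallow libraries. With each library left out in turn the count was 0 to 1, the 1 being novel_circRNA_247 without UVA replicate 1 (edgeR, adjusted p = 0.00176). The median log2 fold change of the members stayed between -0.07, reached with UVA replicate 3 left out, and 0.06, reached with UVA replicate 1 left out. With no filter the median of all circRNAs tested moved from 0.02 to 0.17, and that of the members to 0.04. The number of members bounded inside 2-fold was 505. From each circRNA's own spread it was 302 on log2 TPM, which changes the scale as well, and 371 on log2 TMM-scaled counts, both chosen after the data were seen. It was 237 of 251 with a minimum of 30 reads. With 1 library left out it ran from 330 (without sham replicate 3) to 478 (without UVA replicate 1), and in the other fits from 398 (replicate block) to 582 (limma). With a minimum of 10 reads it was 646 of 1000. The margin in the highest band, 0.48, was 0.53 in the highest quartile of abundance. The difference in share of listed reads, -0.109 percentage points (UVA minus sham), had a lowest value of -3.16 (without UVA replicate 1) and a highest of 1.84 (without sham replicate 2).

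The sign of small changes was not stable. For novel_circRNA_18834 the sign changed when sham replicate 2 or UVA replicate 3 was left out, and over the 6 libraries left out the log2 fold change ran from -0.075 to 0.38. For novel_circRNA_50450 it turned with limma (0.10), the replicate block (0.10) and the 2 shallowest libraries as a covariate (0.045), and ran from -0.43 to 0.52 with 1 library left out. The cause was not tested. With the replicate number as a block, 0 members were called and 398 were bounded inside 2-fold. Deviations of same-numbered libraries from their group means correlated at -0.45, -0.33 and 0.14 across the members. Those of sham replicate 2 and UVA replicate 1 correlated at 0.47. Deviations sum to 0 within a group, and the 2 shallowest libraries carry different numbers. These correlations could therefore not decide whether libraries were paired. Without the 2 shallowest libraries 0 members were called, 211 had groups that did not overlap (43 with all 6) and 530 were bounded inside 2-fold. The minimum of 15 reads stood for the highest level in UVA replicate 1, at 232 TPM, where 478 members had their lowest count.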

Other observations

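In 3 of the 636 circRNAs the deposited TPM did not follow the constant of the library, in all 6 libraries. Ranks 163 and 209 shared the same ratio of TPM to the value that the count gives: 2.01, 1.93 and 1.98 in sham replicates 1 to 3 and 2.10, 2.00 and 2.26 in UVA replicates 1 to 3. Rank 11 was at ratios of 1.21 to 1.33 and had counts that were not whole in 4 libraries. Levels of these 3 are given on the TPM scale as deposited, and the edgeR fits used their counts.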
